A study of Silurus asotus with 15 samples.

Results

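The library labelled gill is 1 of 15 poly(A) RNA libraries of Silurus asotus, the Amur catfish, which lives near the bottom of fresh waters, and its values for all 25089 genes were set against those of the 14 others. The others carry the tissue labels maxillary barbel, mandibular barbel, skin, brain, pituitary, ovary, testis, kidney, head kidney, liver, spleen, pancreas, muscle and heart. All 15 came from adult fish of a benthic environment, with no treatment named, and the labels give neither the number of fish nor their sex. Each tissue has 1 library, so no value has a replicate error, no difference was tested, and calls follow a threshold on size alone. Levels are FPKM, that is, sequenced fragments scaled to the length of the gene and to the number of fragments mapped in the library, which can be compared between genes because they are per length. In a bulk library, fewer cells of a type and less RNA per cell cannot be told apart.

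The library was chosen for description as one that carries nerve tissue markers, and 4 genes named in that choice are given first, as a description that supports nothing further. SNAP25 (C0J50_21090), the protein that pulls synaptic vesicles to the membrane, had 1659 FPKM, and the 14 others ran from 0 FPKM through a median of 0.124 to 76.3 FPKM in pituitary. GRIN1 (C0J50_11778, scaffold32387, 483428 to 512631), the obligatory subunit of NMDA-type glutamate receptors, had 836 FPKM, and the 14 others ran from 0 FPKM through a median of 0 to 0.365 FPKM in ovary. Ependymin (C0J50_10611, scaffold10507, 1779180 to 1782581), a secreted glycoprotein of fish brain fluid, had 1898 FPKM, and the 14 others ran from 0 FPKM through a median of 0.125 to 5.70 FPKM in pituitary. GFAP (C0J50_02451, scaffold129, 3253617 to 3259317), the intermediate filament of astroglia, had 108 FPKM, and the 14 others ran from 0.00172 FPKM through a median of 0.0248 to 4.40 FPKM in pituitary. Pituitary was next highest for 3 of these 4 genes. RHCG, an ammonia channel of gill epithelium, was listed at 0 here but reached 232 FPKM in the library labelled brain. The epithelial adhesion protein EPCAM, at 1175 FPKM in the library labelled brain, was at 0.531 FPKM here. RHCG and EPCAM, markers of the labelled tissue, were at or near 0, but other members of their list, such as CLDN7, KRT8 and KRT18, were not. That list of gill epithelium and ionocyte genes summed to 951 FPKM here, against a median of 1182 FPKM in the 14 others. Each library is called by its label only, and what follows describes the neural genes of the library labelled gill.

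Nerve cells signal by releasing transmitters from vesicles onto receptors of the next cell, and voltage-gated channels carry the impulse that triggers release. Glutamate is the main excitatory transmitter of the vertebrate brain, and GABA and glycine are the inhibitory ones. Astroglia, which in teleosts are largely radial glia, clear transmitter and buffer ions, and oligodendrocytes wrap axons in myelin. Transcription factors laid down in the embryo keep the regions of the adult brain apart, from the forebrain to the spinal cord.

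A gene was called enriched where it had at least 5 FPKM in the library labelled gill and lay at least 5-fold above the highest of the 14 others on the log2(FPKM + 1) scale. By this rule 606 of 25089 genes, or 2.42%, were enriched, 561 of them with a protein name. Their median level was 28.1 FPKM, against a median of 1.48 FPKM in the highest other library, and 250 of them were under 1 FPKM in all 14 others. They held 13.3% of the summed FPKM of the library. Near the border lay centrin-1 (38.8 against 6.96 FPKM, enriched) and CAMSAP2 (25.5 against 4.31 FPKM, not enriched). Only 1 gene, or 0.00399%, met the opposite rule: a paralog of translation elongation factor 1 delta (C0J50_06580) had 35.3 FPKM here and from 185 to 550.2 FPKM in the 14 others. It was lowest in the library labelled gill after either rescaling too, but no longer by 5-fold.

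Pituitary was the next highest library for 268 of the 606 enriched genes (44.2%). No such share over all genes is set beside it, and its cause was not tested. Testis followed with 104 genes, ovary with 41 and spleen with 39, and the library labelled brain was next for 10. Across all genes, the Spearman correlation with the library labelled gill was 0.80 for pituitary and 0.70 for pancreas, and 0.61 for the library labelled brain. The lowest values were those of skin and maxillary barbel, both 0.53. These are descriptions across genes, which are not replicates. Values near 0 were coarser in skin, muscle and both barbels, whose smallest common step of FPKM times coding length was 4.27 to 6.46 times that of the finest library, against 1.07 times in the library labelled gill.

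**Figure D1:**
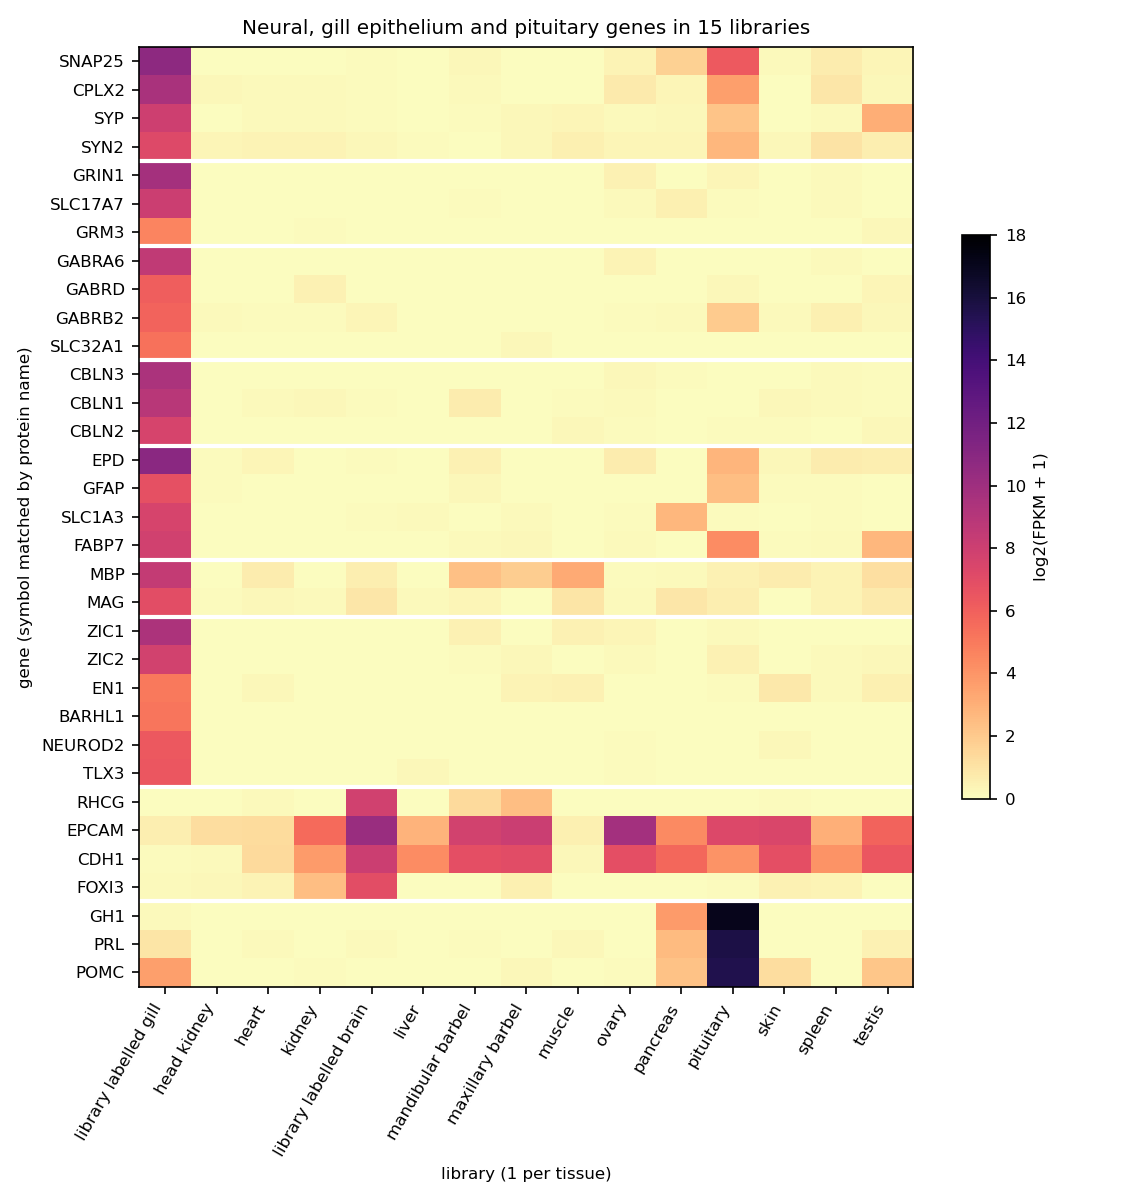
Level of 33 genes (rows, grouped by function) in each of the 15 libraries (columns), as log2(FPKM + 1), with 1 library per column. The rows were chosen with their values known, and the 26 neural genes in the upper rows are all enriched members of the lists. That choice makes them darkest in the first column, where SNAP25 reaches 1659 FPKM. The epithelial genes drawn are near 0 there and dark in the library labelled brain. KRT8, KRT18 and CLDN7, which were higher in the library labelled gill than those drawn, are left out. Members of the monoamine and microglia lists are left out too.

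The enriched genes with the highest levels were, after ependymin and SNAP25, a copy of the glycolytic enzyme aldolase C (C0J50_05093), GRIN1, complexin-2, cerebellin-3 and ZIC1. Aldolase C, which in mammals marks Purkinje cells and astroglia, had 887 FPKM, and the 14 others ran from 0 FPKM through a median of 0.0263 to 0.373 FPKM in ovary. Complexin-2 (C0J50_13797), the clamp on vesicle fusion, had 734 FPKM against at most 11.6 FPKM elsewhere. Cerebellin-3 (CBLN3), known in mammals as a secreted partner of cerebellin-1 in cerebellar granule cells, had 717 FPKM, and the 14 others ran from 0 FPKM through a median of 0 to 0.167 FPKM in ovary. ZIC1, a zinc finger factor of the dorsal neural tube and of cerebellar granule cells in mammals, had 671 FPKM, and the 14 others ran from 0 FPKM through a median of 0 to 0.368 FPKM in mandibular barbel. The ZIC1 gene model is short, with 204 coding bases. In these genes the other libraries lay close to 0, except pituitary for complexin-2.

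The next of these genes were visinin-like 1, gamma-synuclein b and cerebellin-1. Visinin-like 1, a neuronal calcium sensor, is carried by 2 genes, at 499.6 FPKM and 391 FPKM, against at most 0.762 and 4.33 FPKM elsewhere. Gamma-synuclein b, a small protein of nerve endings, had 489 FPKM against at most 3.87 FPKM elsewhere. A precursor of C-type natriuretic peptide (C0J50_22820) had 263 FPKM against at most 0.171 FPKM elsewhere, and was among the 10 named genes with the largest margin. The margin was largest for aldolase C, at 9.34 on the log2(FPKM + 1) scale, followed by cerebellin-3 at 9.27 and GRIN1 at 9.26. The 3 highest of the 45 enriched genes without a protein name were C0J50_22355 at 311 FPKM, C0J50_23585 at 274 FPKM and C0J50_18397 at 198 FPKM.

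The neural programme was described with 16 lists of genes matched by protein name. Of their 501 matched genes, 117 were enriched, or 23.4%, against 2.42% of all genes. The 117 include SNAP25, GRIN1, ependymin and GFAP, which were named in the choice of the library. These genes therefore add to the counts of the vesicle release, glutamate and astroglia lists. All lists were chosen with earlier results of these data known. Where a symbol matched several genes, the one with the highest mean over the 15 libraries, the library labelled gill included, was used. That choice favours genes high here and was not made for all genes, so the shares enriched are a description only. Of the 501, 226 were highest in the library labelled gill with at least 1 FPKM (against 14.5% of all genes). Those under 1 FPKM there numbered 176 (against 41.0% of all genes). The lists differed widely. Vesicle release had 19 of 31 members enriched (61.3%) and no member under 1 FPKM, whereas monoamines and acetylcholine had 0 of 47 enriched and 39 under 1 FPKM. The median margin over the highest other library was 3.0 on the log2(FPKM + 1) scale for vesicle release and -0.77 for monoamines and acetylcholine, against -1.27 for all genes.

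**Figure D2:**
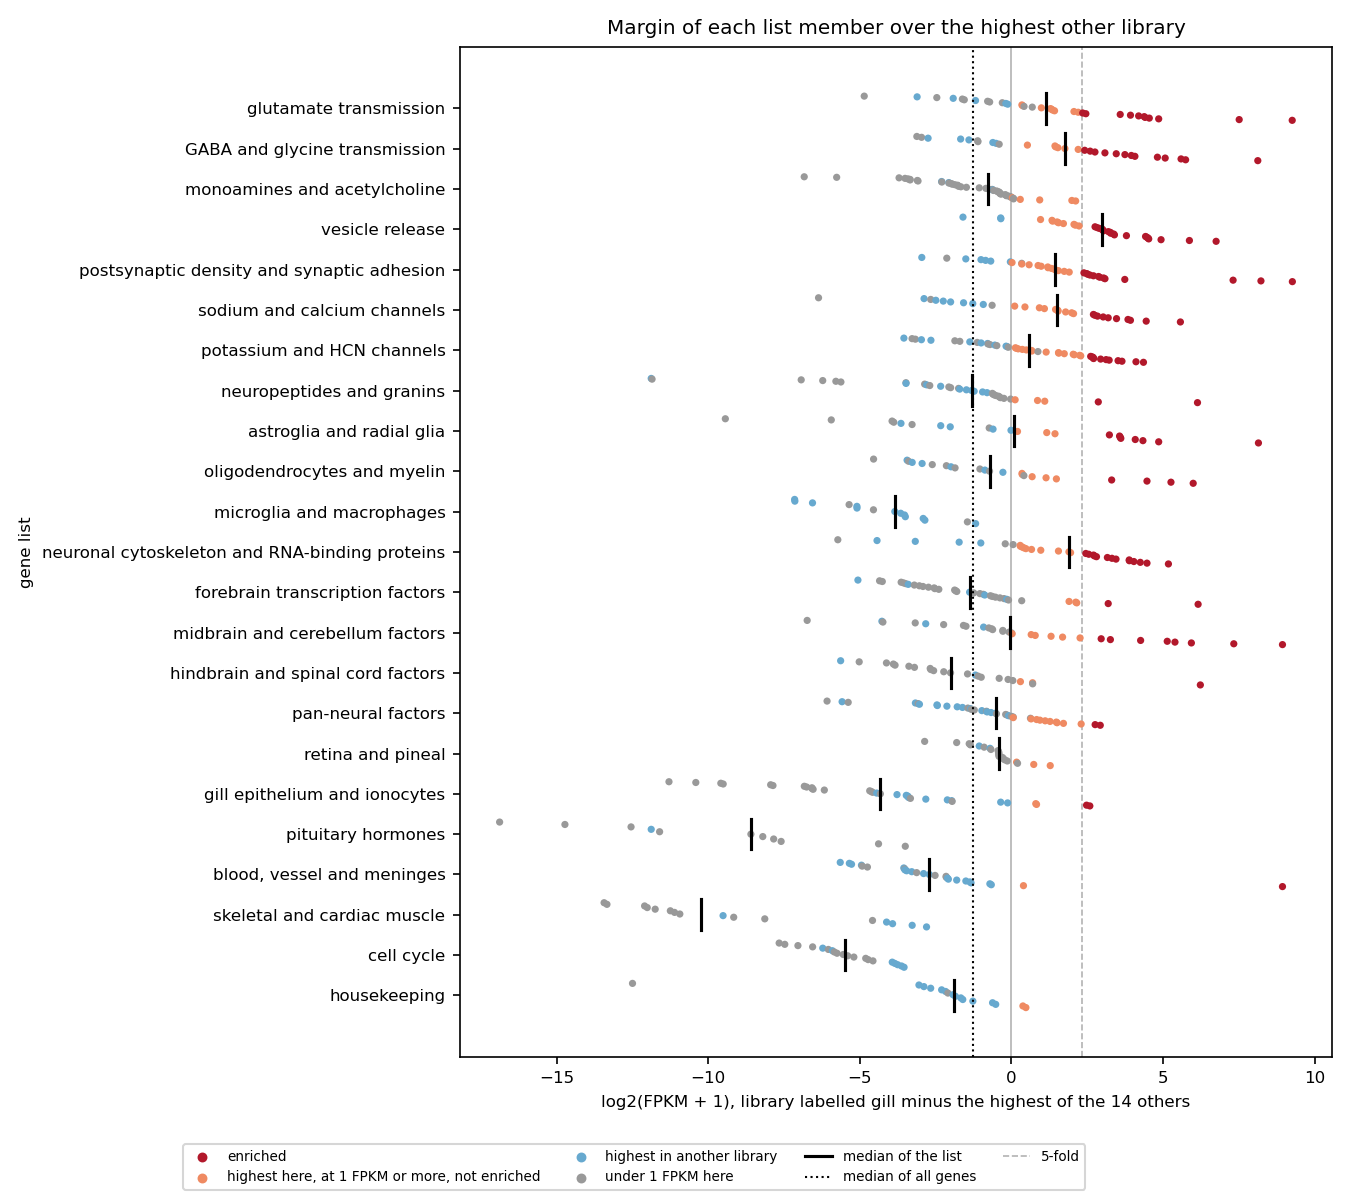
Margin of each list member, as log2(FPKM + 1) in the library labelled gill minus the highest of the 14 others (x axis), for the 23 gene lists (y axis). Points are genes, black bars list medians, the dotted line the median of all genes (-1.27) and the dashed line the 5-fold rule. The points of vesicle release lie mostly beyond the dashed line, and those of the pituitary hormone and muscle lists far to the left of 0.

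No member of the vesicle release list was under 1 FPKM in the library labelled gill. Of the 31, 19 were enriched, or 61.3%, against 2.42% of all genes. After SNAP25 and complexin-2, the enriched members with the highest levels were the vesicle protein synaptophysin (SYP, 257 FPKM against 7.44 FPKM in testis), the vesicle transporter SV2B (159 FPKM against at most 0.483 FPKM elsewhere) and the vesicle tether synapsin-2 (SYN2, 147 FPKM against 5.40 FPKM in pituitary). NSF, the ATPase that takes used fusion complexes apart, had 136 FPKM against 16.1 FPKM in pituitary, and DNM1, the GTPase that pinches off vesicles, had 119 FPKM against 11.4 FPKM in pituitary. The calcium sensor SYT1 had 104 FPKM against 13.1 FPKM in pituitary. The scaffolds of the active zone were lower in level: bassoon (BSN) had 45.3 FPKM, piccolo (PCLO) 16.2 FPKM and the priming factor UNC13A 24.9 FPKM. Of the 28 members highest here, 18 were next highest in pituitary. Members that were highest elsewhere were RAB3C (15.3 FPKM against 48.5 FPKM in pituitary), RIMS1 (14.6 FPKM against 18.9 FPKM in pancreas) and CPLX3 (3.45 FPKM against 4.67 FPKM in pituitary), of which RIMS1 and CPLX3 became highest here with FPKM rescaled to a common sum. The summed level of the 31 members was 4430.2 FPKM, against 9.12 to 393 FPKM in the 14 others. SNAP25, named in the choice of the library, held 1659 FPKM of the 4430.2 FPKM.

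Glutamate genes were divided. Of 34 members, 11 were enriched (32.4%, against 2.42% of all genes) and 9 were under 1 FPKM (against 41.0% of all genes). The median margin was 1.14. Counting every gene that carries a member's name gave 17 enriched, but over more genes, so the rise is not one of share. Of the transporters that load glutamate into vesicles, SLC17A7 (VGLUT1) had 259 FPKM, and the 14 others ran from 0 FPKM through a median of 0.0266 to 0.422 FPKM in pancreas. By contrast, the main row of SLC17A6 (VGLUT2) had 0.187 FPKM, its second copy 1.41 FPKM and SLC17A8 (VGLUT3) 0.00701 FPKM. SLC17A7 was thus the only one of the 3 above 2 FPKM. The glial carriers that remove glutamate from the synapse, SLC1A3 and SLC1A2, had 187 and 54.0 FPKM against at most 5.5 and 3.58 FPKM elsewhere, while SLC1A6, the carrier of Purkinje cells in mammals, had 0.0248 FPKM.

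Among ionotropic receptors, GRIN1 at 836 FPKM stood above each of the other NMDA receptor subunits in level. GRIN2C, which in mammals is the partner used by cerebellar granule cells, came next at 33.8 FPKM (heart 5.34 FPKM), followed by GRIN2B at 4.32, GRIN3B at 4.10, GRIN2A at 1.82 and GRIN2D at 1.3 FPKM. A second GRIN1 gene (C0J50_04675) had 0.989 FPKM here and 7.04 FPKM in testis. The AMPA subunits, which carry fast excitation, were lower than GRIN1 too: GRIA2 had 9.23 and 8.41 FPKM in its 2 genes, and the main rows of GRIA1, GRIA3 and GRIA4 had 1.40, 0.983 and 2.58 FPKM. A second GRIA1 gene was enriched at 10.2 FPKM. Kainate subunits were not enriched, with GRIK2 highest at 9.70 FPKM and 23.3 FPKM in pituitary.

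The G protein-coupled glutamate receptors differed among themselves as well. GRM3, GRM8 and GRM2, which damp release, had 23.6, 19.6 and 14.9 FPKM, each with at most 0.160 FPKM in any other library. GRM5 had 9.96 FPKM against 1.62 FPKM in pituitary and GRM7 4.80 FPKM, and neither was enriched. GRM4 had 0.485 FPKM.

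Genes of inhibition by GABA and glycine had 13 of 29 members enriched (44.8%, against 2.42% of all genes) and a median margin of 1.76. When every gene of a member's name was counted, 20 were enriched, but over more genes, so the rise is not one of share. The highest was GABRA6, a GABA-A receptor subunit that in mammals is found in cerebellar granule cells. The 3 gene models of that name with a signal had 372, 239 and 143 FPKM, and none of them passed 0.334 FPKM in another library. Another model of that name was listed at 0. The first holds 210 coding bases and the second 378, on separate scaffolds, against 951 in the other, so pieces of 1 gene and separate copies cannot be told apart. GABRD, which joins such subunits in receptors outside synapses, had 65.5 FPKM against at most 0.376 FPKM elsewhere, and GABRB2 57.6 FPKM against at most 2.78 FPKM elsewhere. By contrast GABRA2 had 2.59 FPKM against 8.49 FPKM in testis. The metabotropic GABA-B receptor pair GABBR1 and GABBR2 had 39.1 and 21.4 FPKM.

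The enzymes that make GABA were lower in level than the leading receptor subunits. GAD2 had 27.9 FPKM against at most 0.0246 FPKM elsewhere. The main row of GAD1, chosen for its highest mean, had 0.435 FPKM, but 2 other GAD1 genes had 19.2 and 10.2 FPKM and were enriched. The vesicular carrier of GABA and glycine, SLC32A1, had 38.3 FPKM and a second copy 34.5 FPKM. The GABA uptake carrier SLC6A11 had 8.73 FPKM against at most 0.823 FPKM elsewhere. Of the glycine genes, which the same list holds, the neuronal glycine carrier SLC6A5 was low at 0.0916 FPKM. The receptor subunits GLRA2, GLRA4 and GLRB had 0.137, 0.0266 and 1.21 FPKM.

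Genes of monoamines and acetylcholine had 0 of 47 members enriched, against 2.42% of all genes, so the count of 0 lies near that share. Of the 47, 39 were under 1 FPKM, against 41.0% of all genes. The median margin was -0.77, against -1.27 for all genes. The summed level was 88.4 FPKM, which ranked 5 of the 15 libraries, against a median of 26.3 FPKM in the 14 others. The library labelled gill had 0.00683 FPKM of CHAT, which makes acetylcholine, 0.0324 FPKM of its vesicular carrier SLC18A3 and 0.0635 FPKM of the choline carrier SLC5A7. For dopamine and noradrenaline, the main row of TH, the first enzyme, had 0.00328 FPKM and a second copy 1.77 FPKM, DBH had 0.243 FPKM and the dopamine carrier SLC6A3 0.0554 FPKM. For serotonin, TPH2 had 0.0133 FPKM and the carrier SLC6A4 0.717 FPKM, against 92.3 FPKM in heart. The vesicular monoamine carrier SLC18A2 had 0.192 FPKM. Thus none of the enzymes or carriers named here passed 2 FPKM. Of the genes that act on the receiving side, acetylcholinesterase (ACHE), which breaks acetylcholine down, had 57.0 FPKM against 29.3 FPKM in spleen, and the receptors DRD4 (5.89 FPKM against 9.52 FPKM in pituitary, a difference that turned with FPKM rescaled to a common sum), CHRNB2 (5.59 FPKM against 0.656 FPKM in testis) and HTR4 (4.09 FPKM against 0.171 FPKM in spleen) were the other main rows of the list above 3 FPKM.

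**Figure D3:**
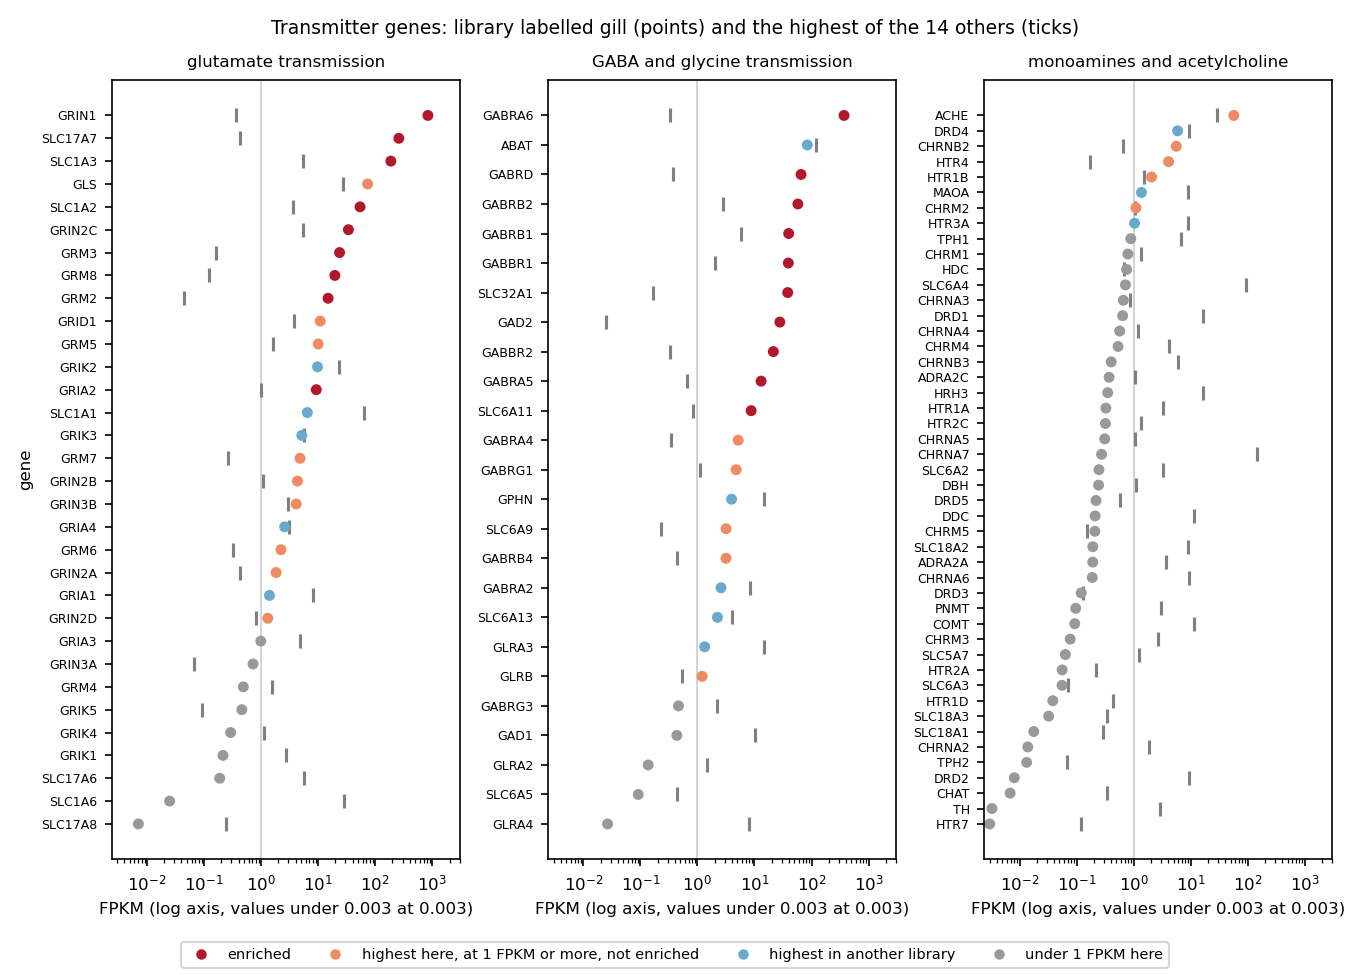
FPKM (log axis) of the members of 3 transmitter lists in the library labelled gill (points, coloured by call) and in the highest of the 14 others (grey ticks), with some members not drawn. Glutamate and GABA genes extend to 836 and 372 FPKM with ticks far to the left. Of the genes of monoamines and acetylcholine, 39 of 47 lie under 1 FPKM (against 41.0% of all genes).

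Among postsynaptic and adhesion proteins, 13 of 34 members were enriched (38.2%, against 2.42% of all genes). The median margin was 1.43, and the cerebellins had the highest levels. With every gene of a member's name, 20 were enriched, but over more genes, so the rise is not one of share. Beside CBLN3, CBLN1 had 478 FPKM and a second copy 81.1 FPKM, CBLN2 had 187 FPKM against at most 0.183 FPKM elsewhere, and CBLN4 had 0.0816 FPKM against 3.74 FPKM in skin. Cerebellins are secreted proteins that bind neurexins on the sending side of the synapse, a link worked out in mouse cerebellum. A second NRXN3 gene had 36.7 FPKM. Of the scaffolds under glutamate receptors, HOMER3 had 77.3 FPKM against 4.87 FPKM in pituitary and SHANK3 19.3 FPKM against 1.70 FPKM in pituitary, whereas DLG4, the scaffold PSD-95, had 7.77 FPKM against 2.50 FPKM in pituitary and DLG2 1.48 FPKM against 1.54 FPKM in pituitary, an order that turned with FPKM rescaled to a common sum. The kinase CAMK2B had 28.6 FPKM against 46.5 FPKM in muscle in its main row and 58.9 FPKM against at most 2.36 FPKM elsewhere in a second gene. Neurogranin (NRGN), a calmodulin-binding protein of forebrain neurons in mammals, had 2.95 FPKM against 10.2 FPKM in pituitary.

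Of the channels that carry the impulse, 10 of 30 sodium and calcium channel members were enriched (33.3%, against 2.42% of all genes). The median margin was 1.49. The sodium channel SCN8A and the auxiliary subunit SCN2B had 27.5 and 54.2 FPKM, against at most 0.876 and 5.04 FPKM elsewhere. SCN2A had 27.0 FPKM against 5.77 FPKM in pituitary and missed the fold. CACNA1A, the pore of the P/Q-type channel that drives release and is abundant in Purkinje cells of mammals, had 75.3 FPKM against at most 0.603 FPKM elsewhere. The N-type pore CACNA1B, in contrast, had 1.11 FPKM against 4.10 FPKM in pituitary, and the L-type pore CACNA1D 2.47 FPKM against 15.5 FPKM in pituitary. The pores of the R type (CACNA1E) and T type (CACNA1I) had 17.1 and 15.9 FPKM. CACNG7 and CACNG4, relatives of stargazin that escort AMPA receptors, had 52.1 and 34.6 FPKM and lie next to each other. The muscle pore SCN4A had 0.0666 FPKM, and the auxiliary subunit SCN3B 30.8 FPKM against 234 FPKM in heart.

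Potassium and HCN channels had 12 of 46 members enriched (26.1%, against 2.42% of all genes) and a median margin of 0.58. The delayed rectifier KCNA3 had 74.9 FPKM against 3.40 FPKM in pituitary, and its relatives KCNA1 and KCNA2 had 13.1 and 6.80 FPKM. KCNC1, the channel of fast-firing neurons, had 39.0 FPKM against 5.32 FPKM in pituitary. A-type channels were represented by KCND3 (20.6 FPKM against at most 0.0540 FPKM elsewhere) and KCND2 (7.06 FPKM against at most 0.232 FPKM elsewhere), with the partner KCNIP4 at 45.7 FPKM. KCNQ3, a channel of the M current, had 4.61 FPKM against 4.01 FPKM in pituitary. Large conductance KCNMA1 (67.9 FPKM against 13.5 FPKM in pituitary) and the inward rectifier KCNJ6 (46.2 FPKM against 8.67 FPKM in pituitary) were highest here without reaching the fold.

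Neuropeptide genes were mixed. Of 35 members, 2 were enriched and 20 were under 1 FPKM (against 41.0% of all genes), and the median margin was -1.31. The share enriched was 5.71%, against 2.42% of all genes, and the median margin of all genes was -1.27. Without pituitary among the others, 4 were enriched. Proenkephalin (PENK), the source of enkephalins, had 106 FPKM against at most 0.518 FPKM elsewhere, and the granin CHGB had 31.5 FPKM against 3.46 FPKM in pituitary. A urocortin-3 gene outside the lists (C0J50_23283) was enriched at 18.9 FPKM, and a second CCK gene had 28.1 FPKM against 7.75 FPKM in mandibular barbel without reaching the fold. Some peptides of the hypothalamus and forebrain were low: NPY had 0.0378 FPKM, HCRT 0.320, AGRP 0.0972, PMCH 0.489, CRH 0.0422 and TRH 1.31 FPKM. These were picked from the list, and others that the forebrain or hypothalamus can make, such as PENK, were not low. Unlike CHGB, some processing enzymes and granins shared with endocrine cells were high here but higher in pituitary. Examples were CPE (188 FPKM against 615 FPKM in pituitary), SCG2 (155 FPKM against 387 FPKM in pituitary) and PCSK2 (73.0 FPKM against 822 FPKM in pituitary). Pituitary hormones themselves were at most 11.1 FPKM, the value of POMC, which had 45722 FPKM in pituitary.

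Ependymin, a secreted protein, was counted in the astroglia and radial glia list, but a bulk library does not show which cells made it. That list had 8 of 22 members enriched (36.4%, against 2.42% of all genes) and a median margin of 0.09. Beside ependymin, GFAP and the glutamate carriers, these were GJA1 (a connexin), which couples astroglia (271 FPKM against 27.9 FPKM in spleen), the lipid carrier FABP7 of radial glia (231 FPKM against 18.6 FPKM in pituitary), the bicarbonate carrier SLC4A4 (103 FPKM against 7.5 FPKM in kidney) and SPARCL1 (17.5 FPKM against at most 0.0916 FPKM elsewhere). S100B (676 FPKM against 249 FPKM in pituitary), glutamine synthetase GLUL (682 FPKM against 593 FPKM in pancreas) and the main row of ALDOC (1387 FPKM against 618 FPKM in head kidney) were highest here without reaching the fold, and GLUL was higher in another library after rescaling by median ratios. The water channel AQP4 was listed at 0, with at most 0.0319 FPKM in its other copies. Brain aromatase, an enzyme of radial glia in the fish forebrain, was matched only by name to CYP19A1, at 0.379 FPKM. The potassium channel KCNJ10 had 0.848 FPKM in its main row and 16.5 FPKM against at most 0.750 FPKM elsewhere in a second gene.

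Structural proteins of myelin were among the enriched genes. Myelin basic protein (MBP) had 345 FPKM against 8.02 FPKM in muscle, and myelin-associated glycoprotein (MAG) 120.2 FPKM against 0.90 FPKM in muscle. A second MBP gene had 15.2 FPKM here against 20.2 FPKM in testis, an order that turned with either rescaling. The other genes named MAG had 1.45 to 3.67 FPKM here, and 3 of them were highest in another library at 5 FPKM or more. Of 23 list members, 4 were enriched (17.4%, against 2.42% of all genes), and the median margin was -0.72. In that list 8 members were under 1 FPKM, against 41.0% of all genes. The transcription factors of the lineage were highest here at low levels, with OLIG2 at 5.60 and SOX10 at 5.51 FPKM, and precursor markers PDGFRA and CSPG4 had 0.872 and 0.677 FPKM. Microglia and macrophage genes had 0 of 15 members enriched and 0 highest here at 1 FPKM or more, against 2.42% and 14.5% of all genes. Their median margin was -3.85, against -1.27 for all genes. CSF1R, the receptor that sustains microglia, had 8.93 FPKM against 73.6 FPKM in spleen, and APOE 411 FPKM against 4654 FPKM in liver.

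The neuronal cytoskeleton and RNA-binding list had 14 of 31 members enriched (45.2%, against 2.42% of all genes) and a median margin of 1.90. With every gene of a member's name, 22 were enriched, but over more genes, so the rise is not one of share. ENO2, the neuronal enolase, had 251 FPKM against 10.4 FPKM in pituitary, the tubulin regulator STMN2 199.7 FPKM against 12.5 FPKM in pituitary, and the RNA-binding proteins ELAVL4 and ELAVL3 102 and 43.8 FPKM. RBFOX3, the antigen NeuN, had 18.4 FPKM against at most 0.184 FPKM elsewhere. GAP43, a protein of growing axons, had 45.6 FPKM against 6.14 FPKM in ovary, and tau (MAPT) 31.3 FPKM against 3.85 FPKM in testis. Neurofilaments, the struts of large axons, were low in level: NEFM had 8.21, NEFL 7.60 and the related INA 14.8 FPKM. RBFOX1 had 0.0889 FPKM against 56.6 FPKM in heart, and ELAVL2 1.28 FPKM against 6.54 FPKM in ovary.

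Regional genes were described in 3 lists, of which the midbrain and cerebellum list also holds CA8 and PCP4, which are not transcription factors. Of 30 midbrain and cerebellum members 8 were enriched, of 35 forebrain members 2 and of 23 hindbrain and spinal cord members 1. These are 26.7%, 5.71% and 4.35%, against 2.42% of all genes. The median margins were -0.04, -1.38 and -2.01, against -1.27 for all genes, and the difference between lists was not tested. The summed level of the midbrain and cerebellum list was 1486 FPKM, against 207 FPKM for the forebrain list and 120.4 FPKM for the hindbrain list. Single genes weigh on these sums: ZIC1, on a model of 204 coding bases, held 671 FPKM of the first and TLX3 87.5 FPKM of the last. The forebrain sum too was the highest of all libraries, with pituitary next at 124 FPKM. ZIC2, ZIC5 and ZIC4 had 218, 70.4 and 50.1 FPKM beside ZIC1, with at most 0.359 FPKM in any other library. The engrailed factors, which mark the border of midbrain and hindbrain, had 32.1 and 22.7 FPKM in 2 EN1 models, the second of 318 coding bases, and 11.8 FPKM for EN2. BARHL1, a factor of cerebellar granule cells in mouse, had 35.8 and 14.5 FPKM in 2 gene models, the first of 225 coding bases, and no other library passed 0.0446 FPKM in either, while another BARHL1 gene had 0.0345 FPKM here. CA8, an inactive carbonic anhydrase of Purkinje cells in mammals, had 121 FPKM against 14.7 FPKM in liver, and NEUROD1, a factor of granule cells and of endocrine cells, 194 FPKM against 39.7 FPKM in pituitary. PCP4 had 1.22 FPKM in its main row and 19.6 FPKM against at most 0.361 FPKM elsewhere in a second gene.

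Of the 35 forebrain members, 25 were under 1 FPKM, against 41.0% of all genes. TBR1, a factor of excitatory forebrain neurons, had 0.297 FPKM, EMX2 0.0300, DLX2 0.0696, DLX5 0.220, LHX2 0.0706 and FEZF2 0.161 FPKM, and EMX1, DLX1 and LHX6 were listed at 0. The hypothalamic factor NKX2-1 had 0.0306 FPKM and SIX3 1.43 FPKM against 80.3 FPKM in pituitary. In contrast 2 members of that list were enriched: NEUROD2, a factor of excitatory neurons of the forebrain and, in mouse, of cerebellar granule cells, had 83.1 FPKM against at most 0.179 FPKM elsewhere and NEUROD6 10.3 FPKM against at most 0.233 FPKM elsewhere. PAX6, which in mouse also serves cerebellar granule cells, had 76.4 FPKM against 16.4 FPKM in pituitary. The main row of EOMES had 1.18 FPKM against 22.1 FPKM in ovary, and 2 other EOMES genes had 21.3 and 18.7 FPKM, both highest here without reaching the fold. Of the 30 midbrain and cerebellum members, 13 were under 1 FPKM, a share near the 41.0% of all genes. That share is therefore not read as a result about these members, and 14 of the 30 were highest here at 1 FPKM or more (against 14.5% of all genes). Of single midbrain factors, POU4F1 and GATA3 were listed at 0, and PAX7, TAL2, LMX1B and OTX2 had 0.323, 0.775, 0.204 and 2.1 FPKM.

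In the hindbrain and spinal cord list, TLX3, a factor of excitatory sensory neurons in mouse, had 87.5 FPKM against at most 0.178 FPKM elsewhere on a model of 237 coding bases, and 2 further genes of that name 60.4 and 22.6 FPKM. All 9 matched HOX members, which give the hindbrain and cord their segment identity, were under 1 FPKM, against 41.0% of all genes. The highest of them was HOXC5 at 0.942 FPKM. Other HOX symbols of the list, among them HOXA2 and HOXB2, matched no protein name, so their levels are not known. ISL1, a factor of motor neurons, was listed at 0, and MNX1 had 0.0271 FPKM. Of the pan-neural factors, SCRT2 (12.6 FPKM against at most 0.783 FPKM elsewhere) and MYT1L (6.06 FPKM against at most 0.0423 FPKM elsewhere) were the 2 of 39 enriched, and 5 were enriched without pituitary among the others. The share of enriched members was 5.13%, against 2.42% of all genes. Of the list, 12 members were highest here at 1 FPKM or more and 14 others at 1 FPKM or more here were highest elsewhere. The latter include SOX2 (11.8 FPKM against 68.5 FPKM in maxillary barbel), SOX11 (72.1 FPKM against 223 FPKM in ovary) and INSM1 (5.47 FPKM against 309.6 FPKM in pituitary).

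**Figure D4:**
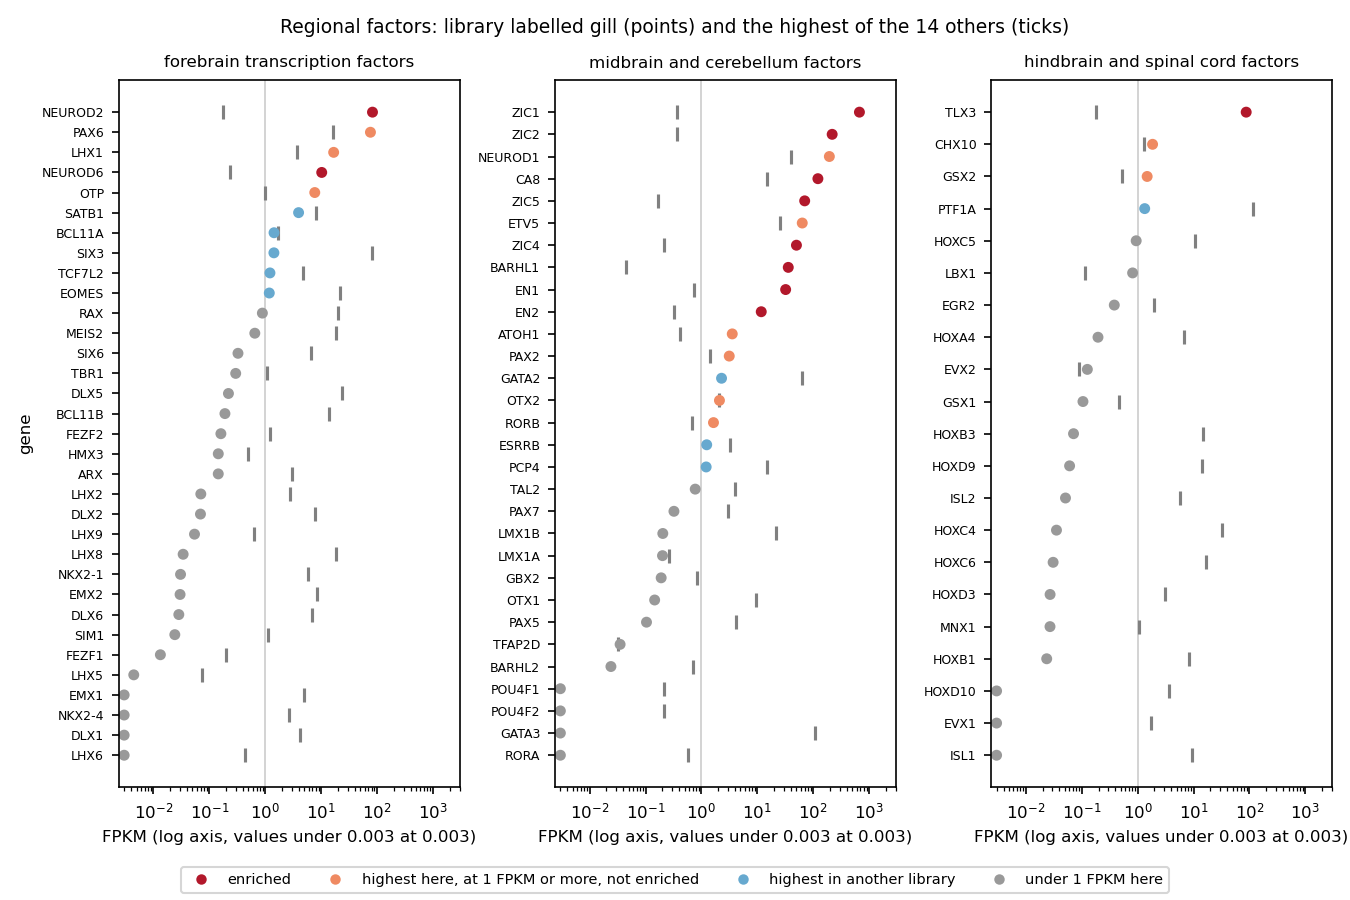
FPKM (log axis) of regional factors in the library labelled gill (points, coloured by call) and in the highest of the 14 others (grey ticks), by list, with some members not drawn, and with CA8 and PCP4 in the midbrain and cerebellum panel. The upper members of the midbrain and cerebellum list reach 671 FPKM (ZIC1). In the full lists 13 of 30 midbrain and cerebellum members, 25 of 35 forebrain members and 18 of 23 hindbrain and spinal cord members lie under 1 FPKM. The share of all genes is 41.0%.

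Markers of other cell types that the sample could hold were listed too. Of 33 gill epithelium and ionocyte members, 18 were under 1 FPKM, against 41.0% of all genes. The share enriched was 6.06%, against 2.42% of all genes, and the median margin was -4.32, against -1.27 for all genes. The summed level was 951 FPKM, against 7698 FPKM in the library labelled brain. That sum ranked 9 of the 15 libraries, below the median of 1182 FPKM of the 14 others but above pituitary (632 FPKM) and liver (139 FPKM). RHCG, CLDN4, MUC5AC and AGR2 were listed at 0, and the ionocyte factors FOXI3 and GCM2 had 0.106 and 0.0436 FPKM, against 118 and 96.2 FPKM in the library labelled brain. The 2 enriched members were a claudin named CLDN7 (C0J50_15092, 219 FPKM against 35.7 FPKM in testis) and ATP6V1B2, a proton pump subunit of vesicles as well as of ionocytes (154 FPKM against 26.9 FPKM in pituitary). Counting every gene that carries a member's name gave 5 enriched, but over more genes, so the rise is not one of share. The 2 genes named junction plakoglobin (JUP) were enriched at 21.1 and 15.2 FPKM, against at most 1.64 and 1.18 FPKM elsewhere. An SLC12A2 gene was enriched at 14.1 FPKM, against at most 0.524 FPKM elsewhere. A second CLDN7 gene had 0.510 FPKM here and 160.2 FPKM in the library labelled brain. The simple-epithelium keratins KRT8 and KRT18, which teleost glia can share, were at 215 and 98.6 FPKM. Their part in the neural results was not tested.

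Retina and pineal genes had 0 of 22 members enriched, against 2.42% of all genes. Their highest level was 2.97 FPKM (ASMT, an enzyme of melatonin synthesis). Pituitary hormones had 0 of 11 enriched, and their median margin was -8.59, against -1.27 for all genes. Blood was present: the alpha globin row HBA had 1041 FPKM against 11440.0 FPKM in kidney, and HBB 473 FPKM against 5413 FPKM in kidney. Endothelial CLDN5, which seals vessels of the blood-brain barrier, had 65.0 FPKM against 107 FPKM in spleen, and the glucose carrier SLC2A1 271 FPKM against 206 FPKM in heart. Apart from ZIC1, which the meninges share, none of the 27 blood, vessel and meninges members was enriched. With ZIC1 the share was 3.70%, against 2.42% of all genes. The collagens COL1A1 and COL1A2 had 0.572 and 0.875 FPKM. Muscle proteins were near 0, with CKM at 0.222 FPKM against 12679.9 FPKM in muscle, except for myoglobin (MB, 789 FPKM against 11960.3 FPKM in heart). Cell cycle genes were low: MKI67 had 0.563 and TOP2A 0.371 FPKM, and 13 of 20 members were under 1 FPKM (against 41.0% of all genes). The 16 housekeeping members summed to 4976 FPKM, the lowest of the 15 libraries as deposited. The part of blood and vessel RNA in the results was not tested.

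Teleost genomes hold many duplicate genes, and copies of a name were set side by side. Of 2656 protein names carried by exactly 2 genes, 195 had at least 1 of them enriched. Of the 195, 24 had both copies enriched and 171 had 1. Over all single genes 2.42% were enriched, but the share to be expected for names with 2 genes was not counted. The 195 and the 24 are therefore not read as a result about copies. Both copies were enriched for synapsin-2 (147 and 51.1 FPKM), neuroplastin (219 and 24.0 FPKM), an adhesion protein of synapses, and the vesicular GABA carrier. Among the 171 names with 1 enriched copy, the other was also highest here at 1 FPKM or more in 78, against 14.5% of all genes. In 59 of the 171 names the other copy was highest in another library at 5 FPKM or more. The share of all genes that meet this was not counted, so the 59 are not read as a result about copies. A second ependymin gene had 0.418 FPKM here and 141 FPKM in liver, and a second FABP7 gene was listed at 0 here and had 72.2 FPKM in skin. Of the lactate carrier SLC16A1, 1 copy had 114 FPKM here, and its neighbour was listed at 0 here and had 22.1 FPKM in the library labelled brain. Reads shared between near-identical copies could be split by the counting, so values of single copies are uncertain.

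**Figure D5:**
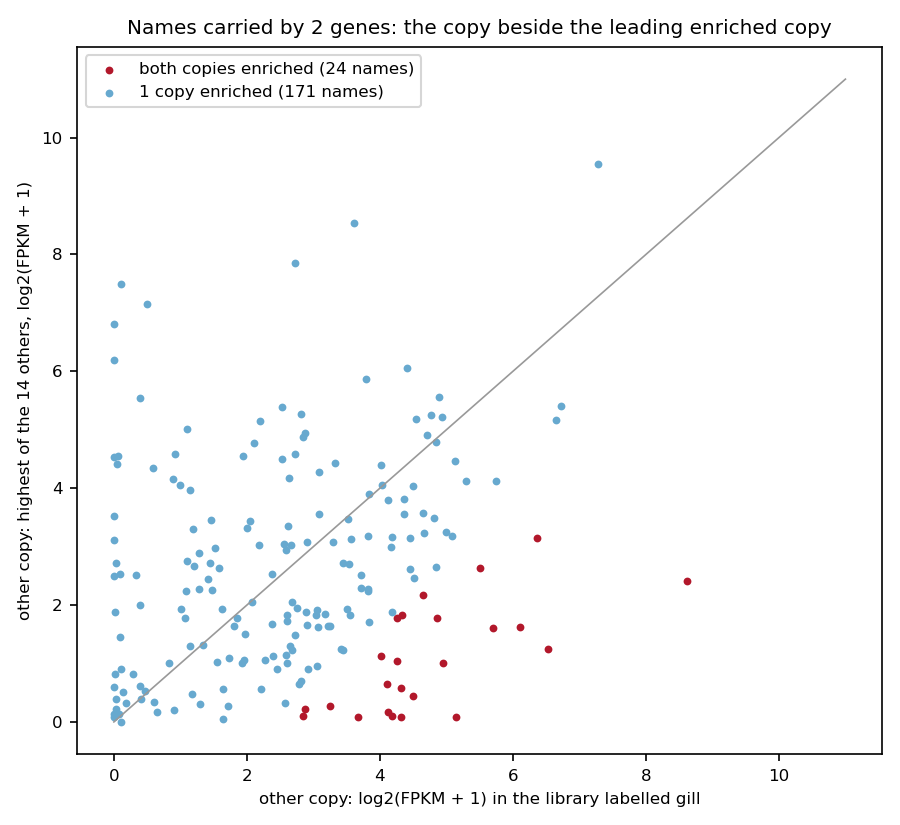
The copy that stands beside the leading enriched copy, for 195 protein names carried by 2 genes: log2(FPKM + 1) in the library labelled gill (x axis) against the highest of the 14 others (y axis), with the line of equality. Red points are names with both copies enriched (24), which the rule places below the line, and blue points names with 1 (171), of which many lie above it.

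Enriched genes were next described by position. Of the 606, 69 (11.4%) lay next to another enriched gene on their scaffold, in 37 neighbouring pairs, whereas 4.28% of the other genes lay next to an enriched one. The GABA-A receptor genes GABRA6 (143 FPKM) and GABRB2 (19 FPKM) were neighbours on scaffold330. ZIC4 and ZIC1 lay side by side on scaffold94 (745921 to 749398 and 756329 to 757072), as did ZIC5 and ZIC2 on scaffold178212. In 4 pairs both genes carry the same protein name, as with MAP2 and SLC12A5, so 1 gene split into 2 models and a tandem copy cannot be told apart. The median span of the enriched genes was 11658.5 bases with 7 coding exons, against 6309 bases and 7 exons for the other genes at 5 FPKM or more.

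Protein domains, which do not depend on gene names, were counted too. Among 430 InterPro domains held by at least 20 genes, the largest shares of enriched genes were those of synaptotagmins, with 8 of 21 genes (38.1%), and of GABA-A and glycine receptor alpha subunits, with 10 of 28 genes (35.7%). The domain of class C G protein-coupled receptors, which include the metabotropic glutamate receptors, had 10 of 45 genes (22.2%). Voltage-dependent potassium channels had 8 of 38 genes (21.1%), the recoverin family of calcium sensors 5 of 25 genes (20%) and ephrin receptors, which guide axons, 4 of 21 genes (19%). The C1q domain, which cerebellins carry, had 7 of 55 genes (12.7%). These shares are set against 2.42% of all genes, and 158 domains had none.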

How the data were processed

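The authors' deposited table gives FPKM for 25089 genes in 15 libraries of poly(A) RNA, 1 per tissue label. The quantifier named is StringTie, version 1.3.4d, per the submitters' processing notes. Not given in the sources used here are the aligner, the build name and any gene filter. Per the labels' protocols RNA was extracted with Trizol and treated with DNase, and libraries were read as pairs. The deposited annotation gave scaffold, start, end, coding exons, domains and a protein name, and 25064 genes were found in it. Positions count from 1. Gene models hold no untranslated regions, so spans and lengths are those of coding models. The deposited columns sum from 239904 (skin) to 738341 (pancreas), with 291049 in the library labelled gill. No counts were given, depth is unknown beyond the step of low values, and no interval was derived.

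Values were compared as log2(FPKM + 1), with a pseudocount of 1, which understates the fold of low genes. Enriched and depleted genes follow the 5-fold rule with a minimum of 5 FPKM. There were 23 lists with 714 symbols, of which 645 matched a protein name; 324 matched several genes, and the gene with the highest mean over the 15 libraries was used. A symbol stands for that match, so paralogs are uncertain. The members and lists were chosen with earlier results of these data known.

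Named genes were the 10 enriched with the highest FPKM, the 10 with the largest margin, the depleted genes, up to 3 unnamed enriched genes, and list members where their list is described. Urocortin-3, domains and copies named outside the lists were chosen after their values were seen. Some list members are not reported here. No sequence is printed, because the files used here hold none. The alternatives were other pseudocounts, minimums, folds, rescalings, libraries left out, every matching gene, and Pearson correlation. The counting rule was tested on simulated data. Python 3.11.15, numpy 2.4.6, pandas 2.3.3 and scipy 1.17.1 were used.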

Additional observations from a re-analysis of the deposited data

How the results depend on the processing

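The count of enriched genes depended on the scale: it was 606 as reported, 247 with a pseudocount of 5, 255 with a 10-fold rule and 1163 with FPKM rescaled to a common sum as in TPM, and it lay between 535 and 883 under the other 8 alternatives (the highest without pituitary). Of the 606, 570 remained with median ratios and 605 with a common sum; the median margin of all genes, -1.27 on the log2 scale, was then -1.08 and -1.21. Of 577 list members that reached 1 FPKM somewhere, 5 turned to highest here and 9 to highest elsewhere under median ratios, and 18 and 2 under a common sum. The 1 depleted gene became 2 with a pseudocount of 0.1 or without muscle, skin and both barbels, and 0 with a 10-fold rule, a pseudocount of 5 or either rescaling. Counts of enriched members, by list, that moved by over 1.5 times were, with a 10-fold rule, 65 in 16 neural lists (from 117), 1 in 7 check lists (from 3), 10 in vesicle release (from 19), 4 in postsynaptic density and synaptic adhesion (from 13), 5 in sodium and calcium channels (from 10), 4 in potassium and HCN channels (from 12), 1 in neuropeptides and granins (from 2), 7 in neuronal cytoskeleton and RNA-binding proteins (from 14), 1 in forebrain transcription factors (from 2), 0 in pan-neural factors (from 2), 0 in gill epithelium and ionocytes (from 2); with a pseudocount of 5, 66 in 16 neural lists (from 117), 7 in glutamate transmission (from 11), 7 in GABA and glycine transmission (from 13), 4 in postsynaptic density and synaptic adhesion (from 13), 3 in potassium and HCN channels (from 12), 1 in neuropeptides and granins (from 2), 5 in neuronal cytoskeleton and RNA-binding proteins (from 14), 1 in forebrain transcription factors (from 2), 0 in pan-neural factors (from 2), 1 in gill epithelium and ionocytes (from 2). With a pseudocount of 0.1 they were 1 in monoamines and acetylcholine (from 0); with a minimum of 10 FPKM, 1 in pan-neural factors (from 2). With a common sum they were 2 in monoamines and acetylcholine (from 0), 5 in forebrain transcription factors (from 2), 5 in pan-neural factors (from 2), 1 in retina and pineal (from 0). Without pituitary they were 4 in neuropeptides and granins (from 2), 5 in pan-neural factors (from 2). With every matching gene they were 7 in 7 check lists (from 3), 17 in glutamate transmission (from 11), 20 in GABA and glycine transmission (from 13), 20 in postsynaptic density and synaptic adhesion (from 13), 22 in neuronal cytoskeleton and RNA-binding proteins (from 14), 2 in hindbrain and spinal cord factors (from 1), 5 in gill epithelium and ionocytes (from 2), 1 in housekeeping (from 0). The counts with every matching gene are over more genes than the main counts, so they are not read as larger shares. Apart from these, no list count moved by over 1.5 times under the alternatives run. Every Pearson correlation on log2 values lay within 0.1 of the Spearman value. Of 89 named enriched genes, none changed the sign of its margin under the 7 alternatives tried on margins. The 5-fold rule fixed this outcome in advance, so it is no support. A pseudocount or a library left out cannot reverse the order, and the rescaling factors differ by less than 5-fold between libraries. No paired analysis was possible because each tissue has 1 library and no group has replicates. Depth limits values near 0, which are coarsest in muscle, skin and both barbels; leaving these 4 out gave 634 enriched genes. The cause of each change of a count was not tested, beyond what the setting itself sets.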

Other observations

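Among the enriched genes outside the lists, several encode cell surface proteins that guide axons or hold synapses together. These genes were chosen after their values were seen, and their values are given as a description. The giant cadherin FAT2, which in mouse serves cerebellar granule cells, had 85.6 FPKM against 9.69 FPKM in skin, and protocadherin-10 had 49.5 FPKM against 3.38 FPKM in heart. Protocadherin-19 had 30.4 FPKM against 4.47 FPKM in pituitary. Of the ephrin receptors, which read contact cues, EPHA7 had 50 FPKM against 5.10 FPKM in heart and EPHB1 25 FPKM against 1.07 FPKM in testis. EPHA8 and EPHB3 were lower in level, at 9.45 and 8.56 FPKM. The secreted cue semaphorin-3E had 36.1 FPKM against 1.58 FPKM in pituitary, and plexin-A2, a receptor for semaphorins, 21.1 FPKM against 1.92 FPKM in testis. Netrin-G2, an adhesion protein of axons, had 11.8 FPKM, and SLITRK2, SLITRK3 and SLITRK5, which organise synapses, had 16.1, 11.6 and 9.73 FPKM. FGF13, an intracellular partner of sodium channels, had 91.7 FPKM against 2.50 FPKM in pituitary.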
